A study of Mus musculus with 28 samples.

Results

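The MS4A family was followed through 7 of its genes, Ms4a4a, Ms4a4b, Ms4a4c, Ms4a6b, Ms4a6c, Ms4a6d and Ms4a7, taken by symbol from the 40021 genes listed in the expression table. The values are mRNA-Seq levels of microglia, the resident macrophages of the retina, sorted by FACS from 28 single mouse retinas. They were 10 naïve retinas and 6, 5 and 7 retinas taken 4 h, 18 h and 2 weeks after endotoxin-induced uveitis (EIU), an acute eye inflammation started by injecting lipopolysaccharide (LPS) into the vitreous. All mice, controls included, were male heterozygotes of the Cx3cr1CreER:R26-tdTomato strain on C57BL/6, in which tamoxifen-activated Cre from the Cx3cr1 locus switches on a red reporter, and live cells with high reporter signal were collected. Cx3cr1 is also used by other macrophages and by some monocytes, and the study chose its tamoxifen regime to restrict the label to microglia. The retinas came from 2 experiments, with 6, 3, 4 and 4 retinas of the groups in experiment 1 and 4, 3, 1 and 3 in experiment 2. The labels name the eye but not the mouse, so the p-values measure the spread between retinas. They could be too small if some retinas came from the same mouse. No group was injected without LPS, so injection and LPS cannot be told apart in comparisons with naïve retinas.

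MS4A proteins are small membrane proteins that cross the membrane several times with both ends in the cytoplasm, and they sit beside immune receptors and adjust their signalling. The best known are Ms4a1, which encodes CD20 of B cells, and Ms4a2, the beta chain of the mast cell IgE receptor. Other members belong to macrophages and monocytes: Ms4a7 is typical of macrophages at the borders of the nervous system, Ms4a4a works with the fungal receptor Dectin-1, and human variants near the cluster are linked to the soluble form of the microglial receptor TREM2. Ms4a4b is known from T cells.

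The 7 genes lie within a single cluster on mouse chromosome 19. In the GRCm38 annotation they follow one another as Ms4a7 (11321039 to 11336146, minus strand), Ms4a4a (11375523 to 11392790), Ms4a4c (11404770 to 11427246), Ms4a4b (11443553 to 11467055), Ms4a6c (11469366 to 11482192), Ms4a6b (11516512 to 11531256) and Ms4a6d (11586604 to 11604849, minus strand), with the unmarked genes on the plus strand. The promoters of 6 members, with 2 for Ms4a7, were taken from RefSeq on GRCm38.p6. Over 300 bases around the start, Ms4a4b and Ms4a4c were identical in 73.8% of alignment columns, the highest of 21 pairs, whose median was 50%. Ms4a6b and Ms4a6c were identical in 52.3% of columns, of which 154 were gapped, and in 88.3% of the positions aligned without a gap. By this second measure the other pairs ran from 66.3% to 84.9%, the highest being Ms4a4b and Ms4a4c. The 250 bases before the RefSeq start are shown for both pairs, because the genes of a pair differ in level or response below. For Ms4a4c and Ms4a6b this start lies 2891 and 2047 bases downstream of the gene start given above, within 5 bases of the start of 1 of 3 and 1 of 5 annotated transcripts. For Ms4a4b and Ms4a6c it lies within 5 bases of the gene start. They are written 5′ to 3′ on the plus strand, and capitals mark matches, on either strand, to the PU.1 core GAGGAA and to the kappa B core, which is GGG and CC with any 5 bases between them.
Ms4a4b, chr19:11443308-11443557: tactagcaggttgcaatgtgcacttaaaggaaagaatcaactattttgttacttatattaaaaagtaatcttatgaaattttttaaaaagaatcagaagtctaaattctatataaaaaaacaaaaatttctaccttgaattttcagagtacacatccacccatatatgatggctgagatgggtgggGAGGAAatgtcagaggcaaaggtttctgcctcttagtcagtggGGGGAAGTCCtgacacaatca
Ms4a4c, chr19:11407411-11407660: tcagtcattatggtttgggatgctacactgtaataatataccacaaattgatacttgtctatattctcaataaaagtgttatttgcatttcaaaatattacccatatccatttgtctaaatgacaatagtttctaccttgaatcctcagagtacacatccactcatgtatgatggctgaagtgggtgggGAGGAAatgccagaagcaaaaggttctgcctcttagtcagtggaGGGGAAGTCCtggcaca
Ms4a6b, chr19:11518309-11518558: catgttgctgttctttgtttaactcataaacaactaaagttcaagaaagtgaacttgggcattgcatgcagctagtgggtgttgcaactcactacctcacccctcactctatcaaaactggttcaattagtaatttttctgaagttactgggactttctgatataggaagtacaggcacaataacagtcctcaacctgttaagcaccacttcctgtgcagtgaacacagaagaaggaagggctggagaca
Ms4a6c, chr19:11469118-11469367: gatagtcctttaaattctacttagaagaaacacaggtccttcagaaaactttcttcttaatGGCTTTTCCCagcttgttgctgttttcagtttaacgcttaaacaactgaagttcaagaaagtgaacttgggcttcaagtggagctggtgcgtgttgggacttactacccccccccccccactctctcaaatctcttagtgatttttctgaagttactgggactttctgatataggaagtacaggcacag

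Ms4a4b and Ms4a4c carried the PU.1 core and the kappa B core with the same spelling at nearly the same place, from bases 187 and 230 of the first sequence and from bases 190 and 234 of the second. Ms4a6c held a kappa B core at base 62, and Ms4a6b held neither in the 300 bases searched. Of 32851 RefSeq mouse promoters of the same length, 28.3% held the PU.1 core and 50.8% the kappa B core, so such matches are common. The interferon response core (GAAA, any 2 bases, GAAA), the GAS core TTCNNNGAA and the composite Ets-IRF core (GGAA, any 2 bases, GAAA) were in 3.44%, 8.3% and 2.72% of promoters, and none matched in the 7 member promoters searched. A match is a description of letters, not of binding.

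Levels are given in RPKM, the reads of a gene scaled to its transcript length and to the reads mapped in that retina. A gene was tested where 5 or more retinas reached 1 RPKM, which 13164 genes did, all 7 members among them. Ms4a4b passed with 8 retinas, 4 of them from the 18 h group, without which it would have missed the filter, so its comparisons with 18 h are given as values only. Counts of calls out of 7 and medians over the 7 members still include it. Because RPKM is corrected for gene length, levels can be set beside each other between genes. In naïve retinas Ms4a6d was the most abundant by median, at 148 RPKM, above 97.1% of tested genes. Ms4a6c followed at 62.2, Ms4a4a at 59.8, Ms4a7 at 39.7, Ms4a6b at 35.1 and Ms4a4c at 21.8 RPKM, and the ranges of neighbours in this order overlapped. Ms4a4b stood apart at 0.107 RPKM.

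**Figure D1:**
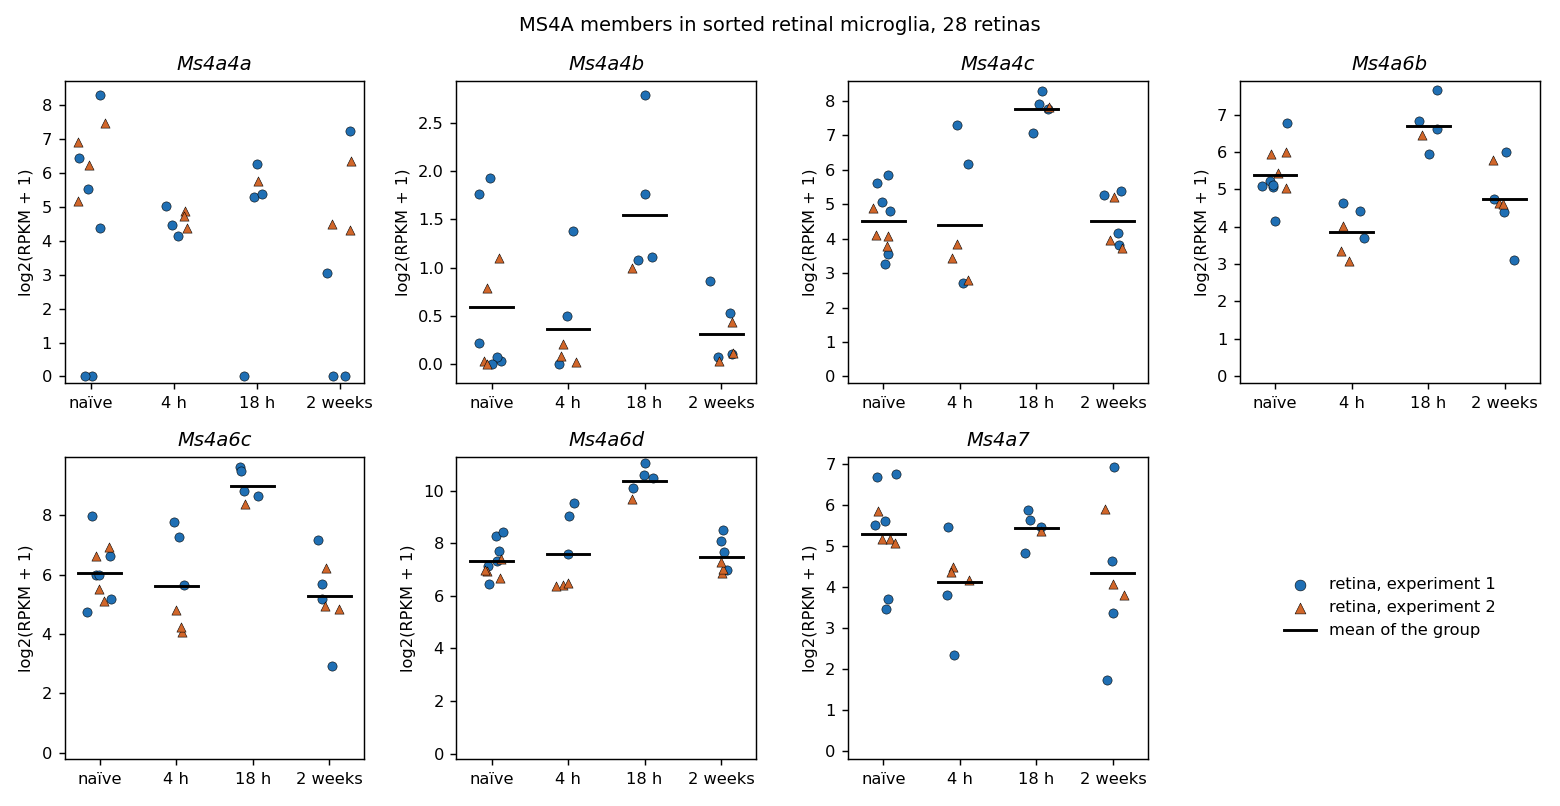
Level of each member as log2(RPKM + 1) on the vertical axis, by group, with 1 point per retina, the experiment shown by colour and shape, and black bars at group means (none for Ms4a4a, which is listed at 0 in 5 retinas). All 5 retinas at 18 h sit above all 10 naïve retinas for Ms4a4c, Ms4a6c and Ms4a6d.

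At 18 h the members Ms4a4c, Ms4a6c and Ms4a6d rose together, by 9.69-fold, 7.62-fold and 8.29-fold over naïve retinas on the scale of RPKM + 1. For each, every retina at 18 h was above every naïve retina. Ms4a4a and Ms4a7 did not pass the test, and their 18 h retinas lay within the naïve range. Calls rested on adjusted p-values up to 0.05 together with changes of 2-fold or more. With 3 of 7 members called higher, the share of all tested genes called higher was 2.84%, and 2.05% of genes had all 18 h retinas above all naïve retinas. The median change of the 7 members was 1.32 on the log2 scale, against -0.08 over all tested genes. In bulk samples more RNA per cell and more cells that carry a transcript cannot be told apart.

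Ms4a6d was the largest contributor. Its level was 86.4, 148 and 342 RPKM at the lowest, median and highest naïve retina. The 5 retinas at 18 h had 1105, 2119, 1534, 1427 and 808 RPKM. Even the lowest of these was more than any naïve value, and the groups did not overlap. The difference in log2(RPKM + 1) was 3.05 ± 0.44 (SE), with an adjusted p of 2.819e-05 by limma. Its median rank at 18 h was above 99.7% of tested genes.

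Ms4a4c, which is known as an interferon-inducible gene, ranged from 8.59 to 56.9 RPKM in naïve retinas with a median of 21.8. At 18 h it had 134, 315, 240, 219 and 226 RPKM. Again the lowest 18 h retina exceeded the highest naïve one. The log2 difference was 3.28 ± 0.57 (SE), with a limma adjusted p of 4.025e-04. Its neighbour Ms4a4b had 1.16, 5.94, 2.38, 1.11 and 0.989 RPKM at 18 h, against 0 to 2.80 RPKM in naïve retinas. These ranges overlapped. Group means at 18 h were 227 ± 64.3 RPKM (SD, n = 5) for Ms4a4c and 2.31 ± 2.10 RPKM for Ms4a4b.

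Ms4a6c had a median of 62.2 RPKM in naïve retinas and a range of 25.5 to 247. At 18 h it had 396, 789, 719, 450 and 329 RPKM, all above the naïve range. The log2 difference was 2.93 ± 0.60 (SE), with a limma adjusted p of 0.00237. Its value is less certain than the others, because 1088 of its 2050 annotated exon bases are shared with BE692007, a gene of the opposite strand (chromosome 19, 11470166 to 11484578), and the library kit does not mark strand. The reads of both cannot be told apart beyond what the authors' estimation assigned. BE692007 itself was listed at a median of 2.40 RPKM in naïve retinas and 22.1 RPKM at 18 h, and at most at 39.1 RPKM. Other members share less sequence. Of their 50-base stretches, 8.19% of Ms4a4c, 5.89% of Ms4a6b, 4.19% of Ms4a4b and 2.69% of Ms4a6d occur in other genes. Most of these are shared between Ms4a4b and Ms4a4c, Ms4a6b and Ms4a6c, or Ms4a6d and Ms4a6b. The part of shared reads in the levels and correlations of the members was not tested.

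Ms4a6b had a median of 35.1 RPKM in naïve retinas, with 109 RPKM in the highest. At 18 h it had 97.2, 204, 113, 61.2 and 87.8 RPKM. Only 2 of these were above all naïve retinas, so the groups overlapped. The log2 difference of 1.32 ± 0.42 (SE) had a limma adjusted p of 0.0615 and was not called. It was called, with limma adjusted p-values of 0.0292, 0.0422 and 0.0381, when naïve retina 2, 18 h retina 4 or 2 week retina 4, in this order, was left out.

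Ms4a7, the border macrophage member, had 43.2, 48.8, 27.2, 57.7 and 40.0 RPKM at 18 h, within the naïve range of 10.1 to 108. Its log2 difference was 0.14, with a 95% interval of -1.11 to 1.38. Ms4a4a was listed at 38.7, 75.6, 41.1, 0 and 53.4 RPKM at 18 h. In the 10 naïve retinas it was listed at 20.01, 315, 0, 0, 87.0, 45.01, 74.5, 35.3, 119 and 176.02 RPKM. All 5 of its values of 0, 2 of them at 2 weeks, fell in retinas where between 2 and 65 genes with a median over 20 RPKM were also listed at 0. The 95% interval of its 18 h difference, -3.01 to 2.01 on the log2 scale, was too wide to tell a change from none.

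**Figure D2:**
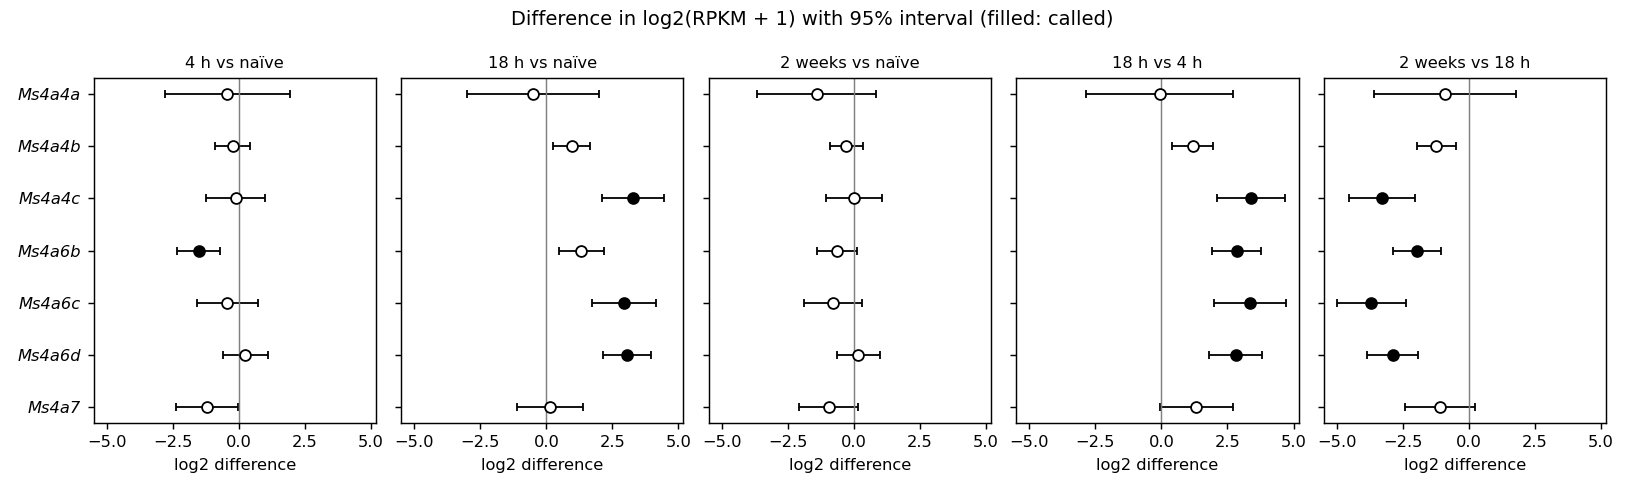
Difference in log2(RPKM + 1) between groups (horizontal axis) for the 7 members (rows) in 5 comparisons, with 95% intervals from limma; filled points were called. At 18 h against naïve retinas the filled points are Ms4a4c, Ms4a6c and Ms4a6d, at 3.28, 2.93 and 3.05. Ms4a4b passed the filter through its 18 h values, so its comparisons with 18 h are drawn but not read as tests.

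At 4 h only Ms4a6b was called, and it fell. The 6 retinas at 4 h had 7.41 RPKM at the lowest, 13.6 at the median and 23.8 at the highest, against 16.9, 35.1 and 109 in naïve retinas. The groups overlapped, with 4 of 6 retinas at 4 h below the naïve range. The change was -1.52 ± 0.39 (SE) on the log2 scale, 2.87-fold lower, with a limma adjusted p of 0.0102. This was 1 of 7 members, where 4.39% of all tested genes were called lower. The median change of the members was -0.43, against -0.11 over all genes. In experiment 1 alone the Ms4a6b change was -0.98 with an adjusted p of 0.527, and in experiment 2 it was -2.14. In experiment 2 alone Ms4a6c and Ms4a4a fell as well, with limma adjusted p-values of 0.0268 and 0.0426. Calls over all genes were more in that experiment too, 1474 in either direction at 4 h, against 1063 with both experiments. Of all tested genes 3.68% were called higher at 4 h, and no member was.

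Ms4a4c, Ms4a6c and Ms4a6d spread widely at 4 h. For Ms4a6c and Ms4a6d the retinas of experiment 1 were all above those of experiment 2, and for Ms4a4c the experiments overlapped. Ms4a6d had 194, 735 and 519 RPKM in the retinas of experiment 1, and 85.1, 88.6 and 80.9 RPKM in those of experiment 2. Ms4a6c had 49.3, 217 and 152 RPKM in experiment 1, against 15.7, 26.8 and 17.9 RPKM in experiment 2. Ms4a4c had 5.53, 158 and 71.7 RPKM in experiment 1, where retina 1 was the lowest of all 6, and 9.91, 13.5 and 5.96 RPKM in experiment 2.

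Set against the naïve retinas of the same experiment, the 4 h change of Ms4a6d was 1.17 on the log2 scale in experiment 1 and -0.58 in experiment 2. The change of Ms4a6c was 0.82 in experiment 1 and -1.67 in experiment 2. The difference between experiments was -1.75 ± 0.62 (SE) for Ms4a6d and -2.49 ± 1.03 for Ms4a6c, with adjusted p-values of 0.670 and 0.882 by limma. No member was called in this test, 2 of 7 had an unadjusted p under 0.05, and 0.0988% of all tested genes were called. For the change at 2 weeks no member was called either, with 0 of 7 at an unadjusted p under 0.05 by limma and 0% of all genes called. The summed level of 12 microglia markers was 6242, 1898 and 2984 RPKM in retinas 1 to 3 of the 4 h group, lowest in retina 2, where these members were highest, and 7071, 3718 and 7220 RPKM in retinas 4 to 6. The summed level of the T and NK cell markers was 5.46, 5.33 and 5.21 RPKM in experiment 1 and 0.239, 2.53 and 0.514 RPKM in experiment 2. Lck was the largest part of this sum at 4 h, with a mean of 2.37 RPKM and up to 5.33 RPKM. At 4 h 6 of the 12 T and NK cell markers were at 0 in every retina, so the sum mostly describes Lck. Retina 2 also had the fewest genes at 1 RPKM of its group, 8254, with 16 genes of a median over 20 RPKM at 0. The part of these in the result was not tested.

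**Figure D3:**
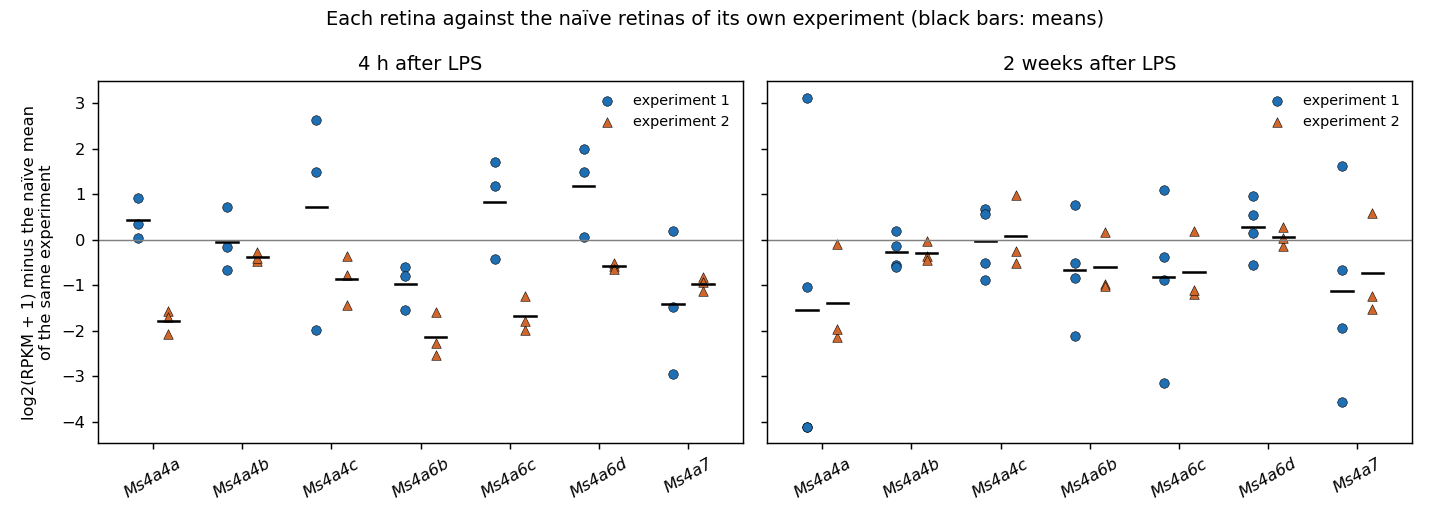
Each retina at 4 h (left) and 2 weeks (right) as log2(RPKM + 1) minus the naïve mean of its own experiment (vertical axis), by member; black bars are means. At 4 h the 3 retinas of experiment 1 lie at or above 0.06 for Ms4a6d and those of experiment 2 at or below -0.51.

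For the other members at 4 h, Ms4a7 had 4.08 to 43.3 RPKM with a median of 18.3, and its change of -1.19 ± 0.58 (SE) had a limma adjusted p of 0.236. Ms4a4a was listed at 16.8, 31.6, 21.1, 19.9, 28.4 and 25.8 RPKM. Ms4a4b had at most 1.59 RPKM, in retina 2.

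From 4 h to 18 h the rise took in Ms4a6b as well. Ms4a4c, Ms4a6b, Ms4a6c and Ms4a6d were called higher at 18 h, by 3.40 ± 0.63, 2.84 ± 0.46, 3.36 ± 0.66 and 2.81 ± 0.49 (SE) on the log2 scale. The limma adjusted p-values were 6.609e-04, 9.803e-05, 0.00130 and 2.761e-04. This was 4 of 7 members, where 2.92% of all tested genes were called higher. For Ms4a6b, Ms4a6c and Ms4a6d the groups did not overlap, with all 18 h retinas above all retinas at 4 h, as they were for 4.84% of all tested genes. For Ms4a4c 4 of 5 retinas at 18 h were above all retinas at 4 h, because retina 2 at 4 h, with 158 RPKM, passed the lowest of them. In experiment 1 alone these 4 differences were 1.84 to 2.51, with adjusted p-values of 0.0739 to 0.259 by limma, and none was called.

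At 2 weeks no member was called against naïve retinas by limma, and none had an unadjusted p under 0.05. Of all tested genes 0.0076% were called. The median change of the 7 members was -0.63 on the log2 scale, against 0.07 over all tested genes. By estimate 1 member was higher and 6 were lower. Ms4a6d had 115, 155 and 361 RPKM at the lowest, median and highest of the 7 retinas, and its log2 difference from naïve retinas had a 95% interval of -0.65 to 0.98. For Ms4a4c, with 12.1, 17.1 and 40.6 RPKM, the interval was -1.05 to 1.05, and for Ms4a6c, with 6.58, 35.5 and 143 RPKM, it was -1.87 to 0.32. The retinas of both groups overlapped for all 7 members. Ms4a4a was listed at 0, 150, 7.37, 0, 18.99, 21.4 and 81.4 RPKM, and Ms4a7 spread from 2.29 to 120 RPKM. The intervals were -3.67 to 0.85 for Ms4a4a, -2.08 to 0.16 for Ms4a7 and -1.40 to 0.13 for Ms4a6b. They are too wide to tell a full return from a level that stayed lower.

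The return from 18 h was itself tested. Ms4a4c, Ms4a6b, Ms4a6c and Ms4a6d fell from 18 h to 2 weeks, by -3.28 ± 0.61, -1.96 ± 0.45, -3.71 ± 0.64 and -2.89 ± 0.47 (SE) on the log2 scale, with limma adjusted p-values of 0.00124, 0.0107, 4.403e-04 and 2.225e-04. These were 4 of 7 members, where 1.55% of all tested genes were called lower. The call of Ms4a6b was lost, at an adjusted p of 0.0603, without 18 h retina 2. Ms4a4b had at most 0.814 RPKM at 2 weeks. For Ms4a4c, Ms4a6c and Ms4a6d all retinas at 2 weeks were below all at 18 h, as for 2.07% of all tested genes. In the order of levels 18 h stood first for these 3 genes, and the naïve, 4 h and 2 week groups did not differ past the test. For Ms4a6b only the naïve and 4 h groups did among these. Between 4 h and 2 weeks no member was called, against 6.09% of all tested genes.

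**Figure D4:**
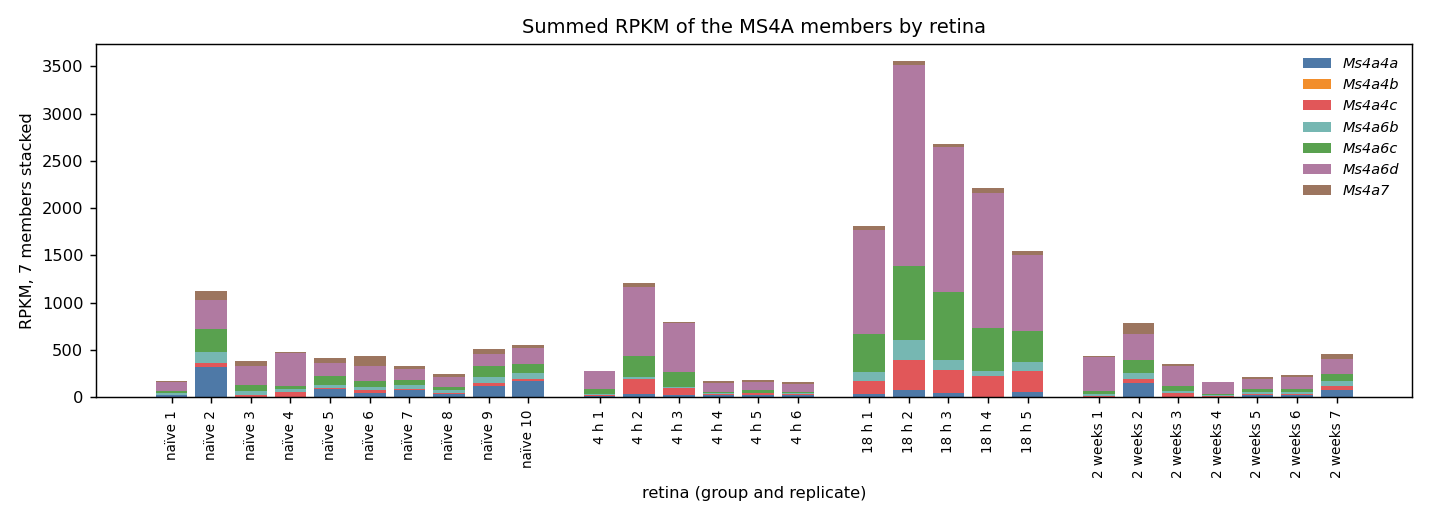
Stacked bars of the RPKM of the 7 members in each retina (vertical axis, RPKM; horizontal axis, group and replicate number). The sums are 1546 to 3558 RPKM at 18 h and at most 1211 RPKM in the other retinas, and Ms4a6d is the widest band at 18 h.

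Summed over the members, the level at 18 h was 1546 to 3558 RPKM. Naïve retinas had 167 to 1128 RPKM, those at 4 h had 159 to 1211 and those at 2 weeks 159 to 788. Ms4a6d made up 52.3% to 64.4% of it at 18 h, and 24.3% to 71.5% in naïve retinas.

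Across the 28 retinas Ms4a4c, Ms4a6c and Ms4a6d tracked each other most closely. Pearson's r of log2(RPKM + 1) was 0.92 between Ms4a4c and Ms4a6d, 0.86 between Ms4a6c and Ms4a6d and 0.85 between Ms4a4c and Ms4a6c. With group means removed these were 0.78, 0.72 and 0.67. For Ms4a4a the coefficient was -0.07 with Ms4a6d and 0.04 with Ms4a4c, and Ms4a7 had 0.26 with Ms4a6d. Ms4a6b was closest to Ms4a6c, at 0.85, and at 0.84 with group means removed. Retinas share depth, experiment and RNA quality across genes, so these coefficients are descriptions.

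**Figure D5:**
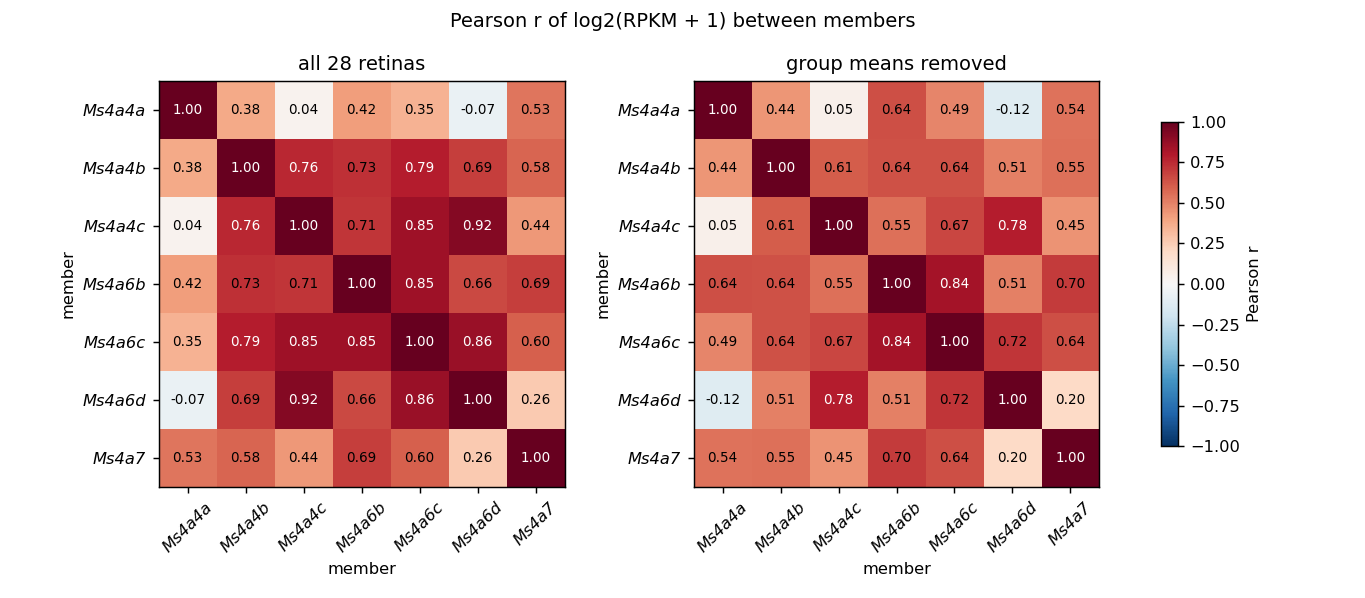
Pearson's r of log2(RPKM + 1) between each pair of members over all 28 retinas (left) and after removing group means (right), on a colour scale from -1 to 1. Ms4a4c and Ms4a6d have the highest value on the left, 0.92, and Ms4a4a and Ms4a6d the lowest, -0.07.

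Among all tested genes, those most like each member over the 28 retinas were often members themselves. For Ms4a4c they were Ms4a6d (r = 0.92), Manf (0.88) and the Fc receptor Fcgr4 (0.87). For Ms4a6d they were Ms4a4c, Fcgr4 (0.87) and Ms4a6c (0.86). For Ms4a6c they were the scavenger receptor Msr1 (0.90), Ms4a6d and Ms4a4c. For Ms4a6b they were Ms4a6c, the lysosomal protease Ctsc (0.83) and Rexo2 (0.80), and for Ms4a4b Ms4a6c (0.79), Ms4a4c (0.76) and the proteasome subunit Psma7 (0.75). Ms4a7 was most like Iah1 (0.73), Dynlt1f (0.72) and the myeloid receptor Clec5a (0.71). Ms4a4a was most like Mad2l1bp (0.88), Tpm1 (0.88) and Phf20 (0.86), with its 5 values of 0 included.

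The rest of the family was nearly silent. RefSeq places 21 MS4A genes in the 678563 bases of the cluster, of which 18 had a row in the table. Of the 11 that are not members none passed the filter. The highest value was 3.27 RPKM, for Ms4a14 in 1 retina at 4 h. Ms4a1 was at 0 in 24 of 28 retinas and at most 0.0419 RPKM, and Ms4a2 was at 0 in all 28. Ms4a15, 1700017D01Rik (Ms4a20) and 1700025F22Rik (Ms4a19) were also at 0 in all 28. Ms4a10, Ms4a13 and Ms4a18 did not exceed 0.125 RPKM, and Ms4a8a exceeded 1 RPKM in 1 retina, with 1.27. Ms4a4d had 1.09, 1.17, 1.37, 0 and 0.527 RPKM at 18 h and at most 0.229 RPKM at any other time. Ms4a3, Ms4a5 and Ms4a12 were not analysed here.

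Within 200 kb of the cluster on either side and inside it, 7 genes outside the family were tested. At 18 h 1 of them was called higher, where 2.84% of all tested genes were, the nucleolar gene Ccdc86, at 2.27 ± 0.49 (SE) on the log2 scale with a limma adjusted p of 0.00406. At 4 h 2 were called higher, where 3.68% of all tested genes were, Ccdc86 at 2.34 and the endolysosomal transporter Slc15a3 at 2.20. The median of the 7 was 0.83 at 4 h and -9.652e-04 at 18 h on the log2 scale, against -0.11 and -0.08 over all tested genes. Tmem176a and Tmem176b, MS4A-like membrane proteins encoded on another chromosome, were not called at any time, with medians of 26.9 and 101 RPKM in naïve retinas and 29.4 and 103 RPKM at 18 h.

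A list of 12 receptors, adaptors and sheddases reported to work beside MS4A proteins or their neighbours changed in both directions. At 18 h 3 were called higher and 2 lower, where 2.84% of all tested genes were called higher and 1.85% lower. Pilrb1 is counted among those called higher, though it passed the filter only through its 18 h retinas. The IgE receptor gamma chain Fcer1g, an adaptor of many activating receptors, went from a median of 2130 RPKM in naïve retinas to 6133 RPKM, by 1.69 ± 0.26 (SE) on the log2 scale with a limma adjusted p of 6.463e-05. The paired receptor Pilra rose by 2.71 on the log2 scale. Pilrb1 is given by its values only, under 1 RPKM in every naïve retina and a median of 33.8 RPKM at 18 h. As near relatives these 2 could share reads. Trem2, the lipid receptor of microglia, fell by 2.08 on the log2 scale, from a median of 118 to 22.3 RPKM, with a limma adjusted p of 5.195e-04. Csf1r, the survival receptor of microglia, fell by 1.88, with a limma adjusted p of 4.740e-04.

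At 4 h 1 of these 12 was called higher and 2 lower, where 3.68% of all tested genes were called higher and 4.39% lower. The inhibitory receptor Cd300lf rose by 1.84 on the log2 scale. Pilra fell by 1.24, the opposite of its 18 h direction, and the sheddase Adam10, which cuts TREM2, fell by 1.44. Tyrobp, the signalling adaptor of TREM2, had log2 differences of 0.30 and 0.10 at 4 h and 18 h and was not called. The median of the 12 was -0.13 at 4 h and -0.25 at 18 h, near the -0.11 and -0.08 of all genes.

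Markers of other cells were present and moved between groups. The largest sums were those of the lists for neighbouring retinal cells. The median summed level of 10 rod photoreceptor markers was 3368 RPKM in naïve retinas and 1947 RPKM at 18 h, and that of 10 Müller glia markers was 1857 and 1085 RPKM. Apoe alone had medians of 1658 and 955 RPKM in these groups, so the Müller glia sum mostly describes Apoe. Rlbp1 and Aqp4 of the same list had naïve medians of 7.51 and 2.28 RPKM. With Apoe included, both sums were above the 427 RPKM of the MS4A members in naïve retinas and below their 2215 RPKM at 18 h.

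Markers of T and NK cells had higher sums at 18 h. The median over 12 genes was 0.0502 RPKM in naïve retinas, and the 18 h retinas had 9.86, 71.6, 16.9, 343 and 72.9 RPKM. Nkg7, a granule protein of NK and cytotoxic T cells, was at 0 in all naïve and 4 h retinas and at 5.77 to 86.4 RPKM in the 5 retinas at 18 h. Gzma, a granule protease and the largest contributor at 18 h, was above 0 in 3 of these 5, with up to 238 RPKM. The T cell receptor gene Cd3e was above 0 in 4 of 5 retinas at 18 h, with at most 0.297 RPKM, and at 0 in all others. Ms4a4b, the T cell member, was highest in 18 h retina 2 and had 1.11 RPKM in retina 4, where the sum was highest.

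The median sum of 12 monocyte markers was 3.68 RPKM in naïve retinas and 13.3 RPKM at 18 h. Plac8 had a median of 0.108 RPKM in naïve retinas and 6.63 RPKM at 18 h, with 27.5 RPKM in the highest, and Ifitm6 had medians of 0.0518 and 1.56 RPKM. Ly6c2, a defining monocyte gene, was above 0 in 4 of 5 retinas at 18 h, with up to 4.68 RPKM, and Ccr2 had a median of 0.107 RPKM there. For 12 border macrophage markers the median sum was 249 RPKM in naïve retinas and 60.2 RPKM at 18 h. The 12 microglia markers were all present. Their median sums were 11153 RPKM in naïve retinas and 10942 RPKM at 2 weeks, but 4980 RPKM at 4 h and 3259 RPKM at 18 h. The part of these shifts in the MS4A values was not tested. Leaving out 18 h retina 4, the one with the highest T and NK cell sum, Ms4a4c, Ms4a6c and Ms4a6d remained called. The other retinas at 18 h still had T and NK cell sums of 9.86 to 72.9 RPKM. The highest monocyte sum, 35.5 RPKM, was in 18 h retina 5. Leaving out retina 4 is therefore no test of the part of other cells.

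Each retina had 7510000 to 19700000 alignments. In 4 retinas, naïve 3 and 4, 18 h retina 4 and 2 week retina 1, under 7500 genes reached an RPKM of 1, against 8137 to 11825 in the other retinas. Without them Ms4a4c, Ms4a6c and Ms4a6d were still called at 18 h, with 1 member called at 4 h and 0 at 2 weeks.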

How the data were processed

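mRNA-Seq values of sorted retinal microglia from 28 retinas were used, grouped by the labels as naïve, 4 h, 18 h and 2 weeks. Per the labels and the paper's methods, the authors trimmed single-end reads, aligned them to mm10 with STAR 2.5.3a and assigned them to Ensembl transcripts in Partek by expectation maximisation, so reads that match several genes are shared out. The deposited values are RPKM, 1 per gene and retina, and whole reads cannot be recovered from them. A value of 0 may therefore be a failed estimate. The deposited tables of the authors' own comparisons, with p-values and fold changes, were not used. Depth was 7510000 to 19700000 alignments per retina.

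Values were transformed to log2(RPKM + 1), which understates changes of low genes. Of 40021 genes, the 13164 that reached 1 RPKM in 5 or more retinas were tested. The test was limma 3.58.1 in R 4.3.3, 2-sided, fitting the 4 groups jointly to the 28 retinas, with the prior variance following mean level and p-values adjusted by Benjamini-Hochberg across the tested genes. Calls rested on adjusted p-values up to 0.05 together with changes of 2-fold or more, and the test of a difference between experiments had no fold threshold. Intervals are at 95%. The members and gene lists were chosen with earlier results of these data known. Genes named besides the 7 members are the other MS4A genes, the Tmem176 pair, partner genes called at 4 h or 18 h, and the 3 genes with the highest Pearson r with each member. The values of BE692007, Slc15a3, Ccdc86, Tyrobp, Gm8369 and the single marker genes were known before they were picked for naming. Same-numbered retinas share only a number. Positions come from GENCODE M21 on GRCm38, promoters from RefSeq on GRCm38.p6 with Biopython 1.88 alignments. Figures were drawn with matplotlib 3.10.9. Alternatives covered the pseudocount, filters, experiment and eye as covariates, scaling, retina weights, a replicate block, each experiment alone and each retina left out.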

Additional observations from a re-analysis of the deposited data

Results flagged for a closer look

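Of 28 combinations of member and group examined on the log2 scale, 2 held a retina far from the others, against about 1 in 20 by chance. Ms4a4a was listed at 0 in 18 h retina 4, with 38.7 RPKM in the next lowest retina. That retina was among the 4 with under 7500 genes at an RPKM of 1. Ms4a4b reached 1.59 RPKM in 4 h retina 2, with 0.416 in the next. Retina 2 also had the highest 4 h values of Ms4a4c, Ms4a6c and Ms4a6d.

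In both Ms4a6d and Ms4a4a every 4 h retina of experiment 1 was above the naïve mean of its experiment and every one of experiment 2 below. For Ms4a6d the difference between experiments was -1.75 on the log2 scale, with a limma adjusted p of 0.670. For Ms4a4a it was -2.22, with an adjusted p of 1. The naïve mean of experiment 1 for Ms4a4a includes 2 retinas listed at 0. Differences between the experiments in sorting or sequencing were not tested.

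In 2 genes of the cluster below the filter on low values, all but 1 of the 18 h retinas were above all naïve retinas. The median of Ms4a4d was 1.09 RPKM at 18 h, against at most 0.188 RPKM in naïve retinas. The median of Gm8369, a predicted gene between Ms4a6c and Ms4a6b, was 0.796 RPKM at 18 h, against at most 0.352 RPKM in naïve retinas. Both were at 0 in 18 h retina 4. With no filter their log2 differences were 0.75 and 0.65, changes under 2-fold on the scale of RPKM + 1. Both genes were picked because their 18 h median passed the highest naïve value, so no test of this difference is given. The share of all genes with this pattern was not counted.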

How the results depend on the processing

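The 3 calls at 18 h against naïve retinas and the absence of calls at 2 weeks held with other pseudocounts, filters and scalings, except that Ms4a6c at 18 h was not called in experiment 2 alone, at an adjusted p of 0.122. That experiment has 1 retina at 18 h, whose spread is assumed to be that of the other groups. At 4 h the number of members called went from 1 to 0 in experiment 1 alone, to 3 in experiment 2 alone and to 3 with retina quality weights. From 4 h to 18 h it went from 4 to 0 in experiment 1 alone, and from 18 h to 2 weeks from 4 to 2 in each experiment alone. The difference between experiments at 4 h was called for 1 member, Ms4a6d, with retina quality weights, at an adjusted p of 0.0148. Fewer retinas entered each experiment alone, and the cause of the other shifts was not tested. Leaving out each retina in turn gave 1 call throughout at 4 h, 3 to 4 at 18 h, 0 at 2 weeks, 4 to 5 from 4 h to 18 h, 3 to 5 from 18 h to 2 weeks and 0 in both tests between experiments. Ms4a6b at 18 h was also called with a pseudocount of 10 (adjusted p of 0.0236), with a filter of 5 RPKM (0.0415) and with weights (0.00192). The fifth call where 5 are counted is that of Ms4a4b, which passed the filter through its 18 h values. With the replicate number as a block, members called were 1, 4, 0, 5 and 5 in the 5 group comparisons and 0 and 0 in those between experiments. Deviations of same-numbered retinas from their group means had correlations of -0.32 to 0.70. The medians by replicate number were -0.02 to 0.12, so these retinas did not deviate together in general, though single pairs did. Over all genes, 1063 and 618 were called at 4 h and 18 h, against 416 and 338 with a pseudocount of 10, 414 and 238 in experiment 1 alone, and 1758 and 1776 with weights. From 4 h to 18 h 714 became 458, 149 and 2127 under these settings and 1248 without the 4 retinas with under 7500 genes, a setting chosen after seeing the data. From 18 h to 2 weeks 349 became 69 and 172 in experiments 1 and 2 alone, 1496 with weights and 531 without the 4 retinas. At 18 h experiment 2 alone gave 152. At 4 h that experiment alone gave 1474, against the 1063 above. The 13 genes called between experiments at 4 h became 0 to 327. Scaling to equal summed RPKM moved the median of all genes to -0.28 at 4 h and -0.26 at 18 h and changed no member's call. The reads behind low values such as those of Ms4a4b are unknown.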
